A study of Mus musculus with 5 samples.

Results

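The genes described here are 39 genes of glycolysis, the pentose phosphate pathway and the response to low oxygen, taken by name from the 46983 genes of the count table. All 39 were found in the table and 38 were tested, Eno2 being too low. They were measured by RNA sequencing in liver Kupffer cells, the resident macrophages of the sinusoids, of Id3-/- mice (knockout, 2 samples, replicates 2 and 3) and of Id3+/- mice (heterozygous, 3 samples, replicates 1 to 3). The heterozygous cells keep 1 intact copy of Id3, which encodes a helix-loop-helix protein that holds E proteins off DNA, so no group with both copies intact is compared here. The sample labels give neither strain, sex nor age. The column names carry a "3w" that they do not explain.

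Glycolysis splits glucose into pyruvate in the cytosol. Lactate dehydrogenase turns pyruvate into lactate, whereas the pyruvate dehydrogenase complex commits it to the mitochondria. The pentose phosphate pathway diverts glucose 6-phosphate to make NADPH and ribose, and phagocytes use this NADPH for the oxidative burst and for keeping glutathione reduced. When oxygen is scarce, prolyl hydroxylases stop marking the factor HIF-1 alpha for destruction, and HIF-1 induces glucose transporters, most glycolytic enzymes and pyruvate dehydrogenase kinases.

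For most of these genes no difference between knockout and heterozygous Kupffer cells passed the test. Of the 38 tested, 2 were higher (Aldoa and Ldhb), 1 was lower (Slc16a1) and 35 were not called in the knockout cells, by edgeR's quasi-likelihood test, where a gene is called when its p, adjusted over all genes by Benjamini-Hochberg, is under 0.05. Over all 16436 genes tested the share called was 16.4%, with 6.41% higher and 10.0% lower. The 3 calls among the 38 genes fall short of the 16.4%. At an unadjusted p under 0.05 by edgeR were 14 of the 38, beside 33.5% of all genes. The tests DESeq2 and limma-voom called 8 and 3 of the 38, beside 27.9% and 17.5% of all genes. The median log2 fold change of the 38 genes was 0.16, beside -0.02 for all genes tested. Values above 0 were found for 26 of the 38, and for 8064 of all 16436 genes. With offsets for transcript length and GC content these medians were 0.11 for the 38 genes and 0.068 for all genes. Both knockout libraries lay above all 3 heterozygous libraries for 13 genes and below them for 8. Of all genes tested, 24.6% lay above and 26.9% below in this way, 51.5% together. Together the 39 genes took 6409 and 6061 CPM (counts relative to the total assigned to genes in a library) in knockout replicates 2 and 3, against 5309, 5078 and 6024 CPM in heterozygous replicates 1, 2 and 3. Heterozygous replicate 3 thus lay close to knockout replicate 3.

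**Figure D1:**
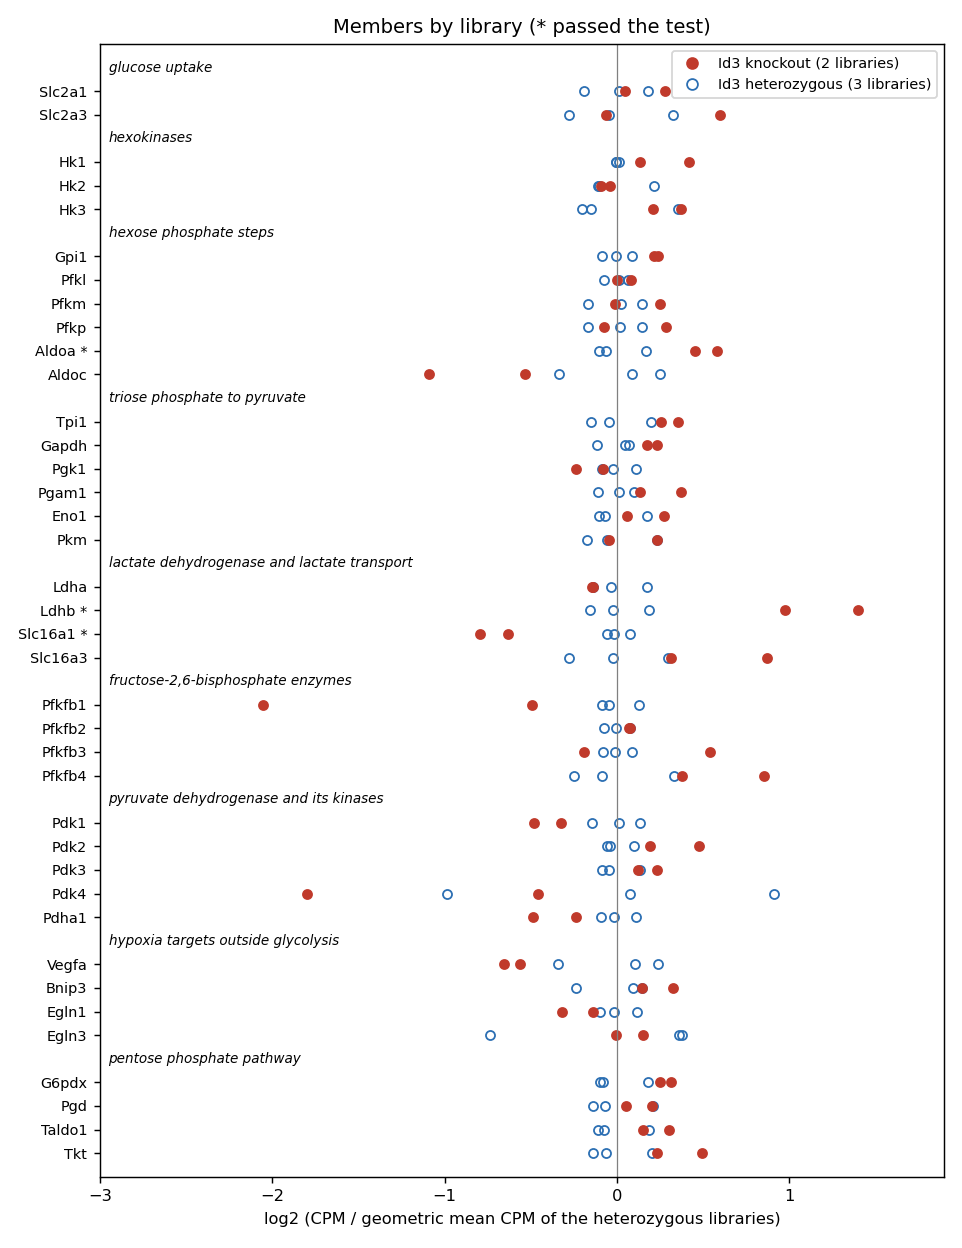
Each row is 1 of the 38 tested genes, ordered by role, and each point is 1 library, placed by the log2 of its CPM over the geometric mean of the heterozygous libraries. Knockout points (filled) and heterozygous points (open) do not overlap for the starred genes Aldoa, Ldhb and Slc16a1. They are also apart for some unstarred genes, Pfkfb1 among them, and for the rest they overlap.

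The genotype labels were borne out by Id3 itself, at 1.01 and 1.42 CPM in the knockout libraries against 229, 221 and 256 CPM in the heterozygous ones. Each library held between 74823374 and 80944135 counts assigned to genes. All 10 Kupffer cell markers, Clec4f, Timd4 and Vsig4 among them, were detected, at a summed 51250 and 47174 CPM in knockout and 47474 to 49219 CPM in heterozygous libraries. None of the 10 was called, with 5 at an unadjusted p under 0.05, 5 called by DESeq2 and 3 by limma-voom. Over all genes tested these shares were 33.5% at an unadjusted p under 0.05, 27.9% by DESeq2 and 17.5% by limma-voom, and the same kinds of count given below for groups of genes are to be read against them. Summed hepatocyte markers were lower in the knockout libraries, at 5847 and 13975 CPM in knockout against 27119 to 33407 CPM in heterozygous libraries, with 17 of 25 called lower and 0 higher. Summed neutrophil markers were higher, at 603.8 and 307.8 CPM in knockout against 164.4 to 192.5 CPM in heterozygous libraries, with 8 of 11 called higher and 0 lower. Of the other marker lists, 2 of 9 monocyte, 1 of 13 T and NK cell and 1 of 6 platelet markers were higher, and 3 of 9 stromal markers were lower and 1 higher. The hepatocyte and neutrophil shares therefore move with genotype, and their part in the values below was not tested. In bulk samples, fewer cells of a type and less RNA per cell cannot be told apart. Nothing in the labels ties the samples to different animals. The p-values then measure the spread between samples, which may be technical only.

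The 3 called genes were Aldoa at the aldolase step and Ldhb and Slc16a1 in the handling of lactate. Ldha and Slc16a3, also of lactate handling, were not called by edgeR. Promoters of the 3 genes are shown because these genes carry the called differences. Each runs from 250 bases before to 50 after a RefSeq start (build GRCm38.p6), with the HIF core motifs ACGTG and GCGTG and the E-box CANNTG of E proteins and other helix-loop-helix factors in capitals, searched on both strands. Ldhb lies at chr6:142507908-142508207 on the minus strand, Slc16a1 at chr3:104638414-104638713 on the plus strand and the most downstream of 3 Aldoa starts at chr7:126799129-126799428 on the minus strand.
Ldhb: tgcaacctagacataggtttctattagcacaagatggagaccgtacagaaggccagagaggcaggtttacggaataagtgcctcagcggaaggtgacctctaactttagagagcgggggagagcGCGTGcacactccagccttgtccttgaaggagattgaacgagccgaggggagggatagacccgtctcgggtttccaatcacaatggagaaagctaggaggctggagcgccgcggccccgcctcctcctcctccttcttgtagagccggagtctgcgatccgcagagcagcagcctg
Slc16a1: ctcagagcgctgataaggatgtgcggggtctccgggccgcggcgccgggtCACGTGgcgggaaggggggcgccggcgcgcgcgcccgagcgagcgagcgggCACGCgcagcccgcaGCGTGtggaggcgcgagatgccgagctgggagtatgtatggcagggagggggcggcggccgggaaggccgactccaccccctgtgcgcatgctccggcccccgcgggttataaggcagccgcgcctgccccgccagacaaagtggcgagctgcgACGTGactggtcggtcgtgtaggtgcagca
Aldoa: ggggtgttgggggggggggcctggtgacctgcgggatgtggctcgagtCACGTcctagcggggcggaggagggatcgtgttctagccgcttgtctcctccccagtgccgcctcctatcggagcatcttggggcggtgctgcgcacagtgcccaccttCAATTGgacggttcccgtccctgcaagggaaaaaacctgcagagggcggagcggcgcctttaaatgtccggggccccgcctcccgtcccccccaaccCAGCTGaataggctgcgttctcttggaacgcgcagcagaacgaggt
The Ldhb window held 1 GCGTG and 0 E-boxes. The Slc16a1 window held 3 matches to ACGTG, 2 of them the overlapping strands of 1 CACGTG E-box, and 2 to GCGTG. This Aldoa window held 1 ACGTG and 2 E-boxes. The window of the most upstream Aldoa start, not printed, held 0 ACGTG, 0 GCGTG and 1 E-box. That of the middle start held 1 ACGTG, 0 GCGTG and 1 E-box. Of the 59 RefSeq promoter windows of 38 of these genes, 45 (76.3%) held ACGTG or GCGTG, against 43.8% of all 32851 mouse windows. For CANNTG the shares were 69.5% and 72.3%. Windows of 1 gene can overlap, and a match to so short a motif describes the letters only. The genes were picked in part for their response to low oxygen, and the mouse windows were not matched for base composition. These shares therefore test nothing about HIF.

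Aldoa, the aldolase of most tissues, which cleaves fructose 1,6-bisphosphate, stood at 880 and 806 CPM in the knockout libraries against 563, 547 and 662 CPM in the heterozygous ones. The groups did not overlap, and Aldoa rose by 0.51 ± 0.11 on the log2 scale (SE, n = 2 and 3, adjusted p = 0.0308 by edgeR). Ldhb, the lactate dehydrogenase subunit that prevails in heart and is associated with lactate use, had 5.87 and 7.89 CPM in knockout libraries against 3.40, 2.94 and 2.68 CPM in heterozygous ones. It rose by 1.20 ± 0.24 on the log2 scale (SE, n = 2 and 3, adjusted p = 0.0266 by edgeR). Slc16a1, the monocarboxylate transporter MCT1, which carries lactate and pyruvate either way across the membrane, had 10.6 and 11.8 CPM in knockout libraries against 17.6, 19.3 and 18.1 CPM in heterozygous ones. It was lower, with -0.71 ± 0.14 on the log2 scale (SE, n = 2 and 3, adjusted p = 0.0253 by edgeR). The 3 calls were fragile. The Aldoa call was lost without knockout replicate 2 (0.45) or heterozygous replicate 1 (0.48) or 2 (0.46), and Slc16a1 was lost without the same libraries (-0.63, -0.74 and -0.67). The Ldhb call was lost without knockout replicate 3 (0.98) or heterozygous replicate 1 (1.29), 2 (1.18) or 3 (1.12). With offsets for transcript length and GC content Slc16a1 went to -0.09 (adjusted p = 0.74 by edgeR) and Aldoa to 0.29 (adjusted p = 0.0792 by edgeR), while Ldhb kept its call at 1.02 (adjusted p = 0.0448 by edgeR).

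**Figure D2:**
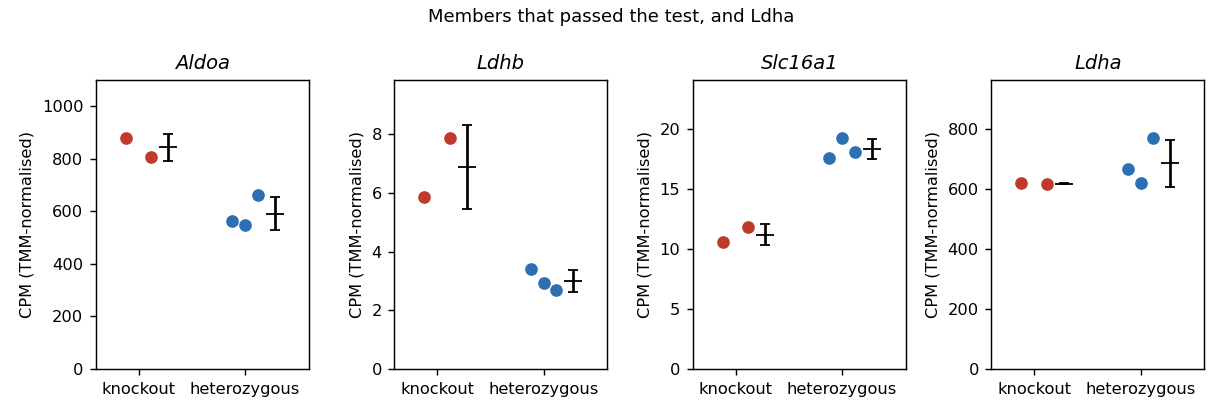
Points are TMM-normalised CPM of single libraries, with the mean and SD beside them, for Aldoa, Ldhb, Slc16a1 and, for comparison, Ldha. The groups do not overlap in the first 3 panels, while the knockout libraries of Ldha, at 619 and 617 CPM, lie just under the lowest heterozygous library.

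The other 2 genes of lactate metabolism were not called by edgeR, while DESeq2 called Slc16a3. Of the 4 genes of this group, 3 were at an unadjusted p under 0.05 by edgeR. DESeq2 called 3 of them and limma-voom 2. Ldha, the muscle-type subunit that favours lactate formation and a textbook HIF-1 target, had 619 and 617 CPM in the knockout libraries against 665, 619 and 772 CPM in the heterozygous ones (log2 fold change -0.15 ± 0.11, adjusted p = 0.408 by edgeR). Per length of transcript, Ldhb made up 1.30% and 1.75% of the summed lactate dehydrogenase level in knockout libraries against 0.705%, 0.656% and 0.481% in heterozygous ones. Ldha was thus nearly the whole of this enzyme's transcripts in every library. Slc16a3, the lactate exporter MCT4, had 32.1 and 21.8 CPM in knockout libraries against 17.3, 14.5 and 21.6 CPM in heterozygous ones, and its log2 fold change of 0.60 ± 0.23 did not pass (adjusted p = 0.132 by edgeR). Knockout replicate 3 and heterozygous replicate 3 were almost level for this gene. Slc16a1 made up 24.4% and 34.6% of the summed level per length of both transporters in knockout libraries, against 49.9%, 56.5% and 45.1% in heterozygous ones, so these shares, which are not corrected for GC content, did not overlap between genotypes. With offsets the log2 fold changes of the pair were -0.09 for Slc16a1 and 0.54 for Slc16a3, neither past the threshold.

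**Figure D3:**
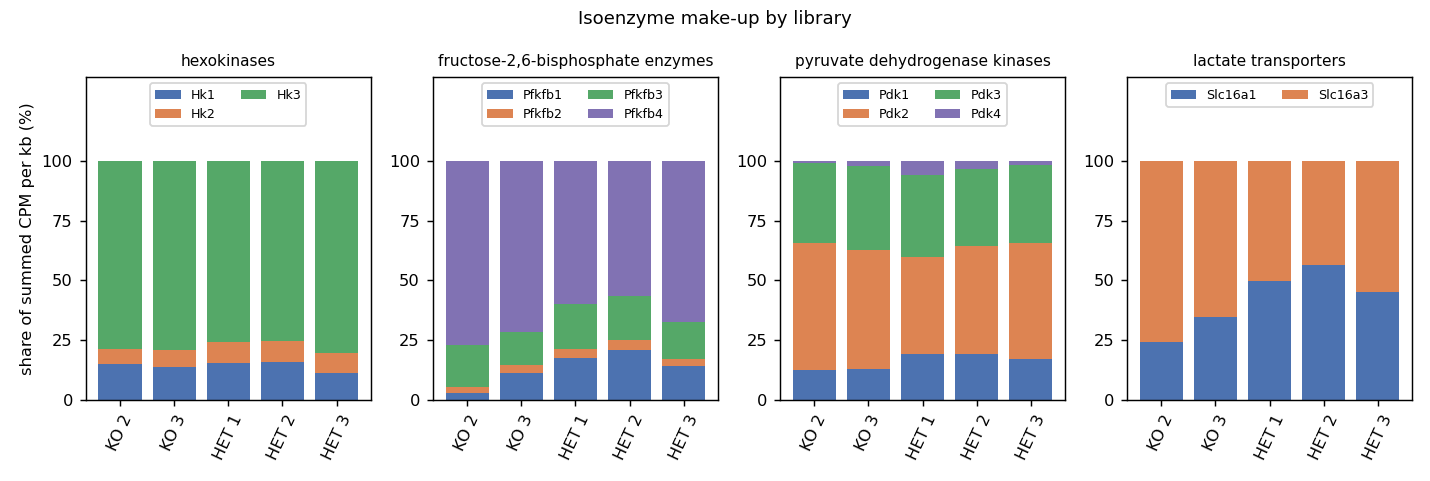
Stacked bars give, for each library (knockout left, heterozygous right), the share of each gene in the summed CPM per kb of its family. Hk3 makes up over 75% of the hexokinase level in every library, and the share of Slc16a1 is lower in both knockout libraries than in any heterozygous one.

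At the entry of glucose, none of 5 genes was called, with 1 of the 5 (Hk1) at an unadjusted p under 0.05 and 0 called by DESeq2 or limma-voom. Slc2a1 (GLUT1), the basal glucose transporter, had 36.7 and 31.3 CPM in knockout libraries against 30.5, 26.5 and 34.3 CPM in heterozygous ones, which overlapped. Slc2a3 (GLUT3), a transporter of high affinity, had 33.5 and 21.2 CPM in knockout against 21.4, 27.8 and 18.2 CPM in heterozygous libraries. Hexokinases trap glucose as glucose 6-phosphate, and Hk3, the isoform known from myeloid cells, was the leading one, with 559 and 499 CPM in knockout libraries against 388, 375 and 551 CPM in heterozygous ones. Heterozygous replicate 3 reached the knockout level here, and the log2 fold change of 0.27 ± 0.18 did not pass (adjusted p = 0.353 by edgeR). Without that replicate Hk3 came to 0.47 and passed. Per length, Hk3 gave 78.7% and 78.9% of the hexokinase level in knockout libraries and 75.2% to 80.4% in heterozygous ones. Hk1, bound to the outer mitochondrial membrane, averaged 128 ± 17.7 CPM in knockout and 105 ± 0.781 CPM in heterozygous libraries (SD, n = 2 and 3), and the inducible Hk2 averaged 78.9 ± 1.92 CPM in knockout and 83.0 ± 11.1 CPM in heterozygous libraries.

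Along the hexose phosphate steps, Aldoa alone was called among 6 genes by edgeR, with 3 at an unadjusted p under 0.05. DESeq2 called 2 (Aldoa and Aldoc) and limma-voom 1. Gpi1, which interconverts glucose and fructose 6-phosphate, had 186 and 183 CPM in knockout libraries against 158, 149 and 168 CPM in heterozygous ones and did not pass (log2 fold change 0.23 ± 0.09, adjusted p = 0.139 by edgeR). The phosphofructokinases catalyse the committed step. Their liver form Pfkl averaged 114 ± 4.45 CPM in knockout and 110 ± 5.43 CPM in heterozygous libraries, and the muscle form Pfkm 10.3 ± 1.32 CPM in knockout and 9.49 ± 1.02 CPM in heterozygous libraries (SD, n = 2 and 3). The platelet form Pfkp averaged 82.4 ± 14.5 CPM in knockout and 76.4 ± 8.29 CPM in heterozygous libraries. These 3 overlapped between genotypes. Aldoc, the aldolase known from brain, was low, with 3.53 and 5.19 CPM in knockout libraries against 5.95, 7.97 and 8.95 CPM in heterozygous ones. Its log2 fold change of -0.81 ± 0.28 did not pass (adjusted p = 0.105 by edgeR), and Aldoa gave over 99% of the summed level per length of the pair in every library.

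From triose phosphates to pyruvate, 0 of 6 tested genes was called, with 1 (Tpi1) at an unadjusted p under 0.05 and 0 called by DESeq2 or limma-voom. Pkm, pyruvate kinase, had the highest level per length of them in uniquely aligned reads. Such reads give only lower limits for Gapdh, Eno1, Pgk1 and Pgam1, and for Pkm itself, with 34.4% of its 50-base windows also in other genes. Pkm had 634 and 522 CPM in knockout libraries against 518, 478 and 633 CPM in heterozygous ones (log2 fold change 0.09 ± 0.15, adjusted p = 0.735 by edgeR). Its M1 and M2 splice forms are counted together. Tpi1, triosephosphate isomerase, had 233 and 250 CPM in knockout against 189, 175 and 224 CPM in heterozygous libraries (0.30 ± 0.12, adjusted p = 0.149 by edgeR), and it passed at 0.41 without heterozygous replicate 3. Eno1, enolase, averaged 282 ± 29.5 CPM in knockout and 251 ± 27.1 CPM in heterozygous libraries (SD, n = 2 and 3). The neuronal enolase Eno2 had 0 and 10 counts in the knockout and 1, 0 and 0 counts in the heterozygous libraries, at or near the floor of 3 counts except in knockout replicate 3.

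Several genes of this stretch may have been counted only in part. Reads that align to more than 1 place are kept apart from the genes in the table, and parts of these transcripts also stand in other genes. How far this lowered the level of each gene was not tested. For Gapdh, glyceraldehyde 3-phosphate dehydrogenase, 82.5% of the 50-base windows of the transcript also stood in transcripts of 222 other genes, and its level was only 11.7 and 12.2 CPM in knockout against 9.55, 10.7 and 10.9 CPM in heterozygous libraries. The shares were 72.2% for Eno1, 68.0% for the phosphoglycerate kinase Pgk1, 62.5% for Bnip3 and 41.5% for the phosphoglycerate mutase Pgam1, with 4 to 9 other genes each. Pgk1 averaged 6.30 ± 0.495 CPM in knockout and 7.03 ± 0.497 CPM in heterozygous libraries, and Pgam1 4.85 ± 0.571 CPM in knockout and 4.06 ± 0.290 CPM in heterozygous libraries (SD, n = 2 and 3). None of these 5 genes was called by edgeR without offsets, DESeq2 or limma-voom, and their levels are lower limits. Multiply aligned reads were 32.3% and 34.1% of all aligned reads in knockout libraries against 38.3%, 39.3% and 41.0% in heterozygous ones, and the part of this gap in the values of genes with copies was not tested. Of the 39 genes, 15 shared at least 10% of their windows, Aldoa (13.5%) and Ldhb (27.0%) among them, and 16 shared none, Slc16a1 among them.

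**Figure D4:**
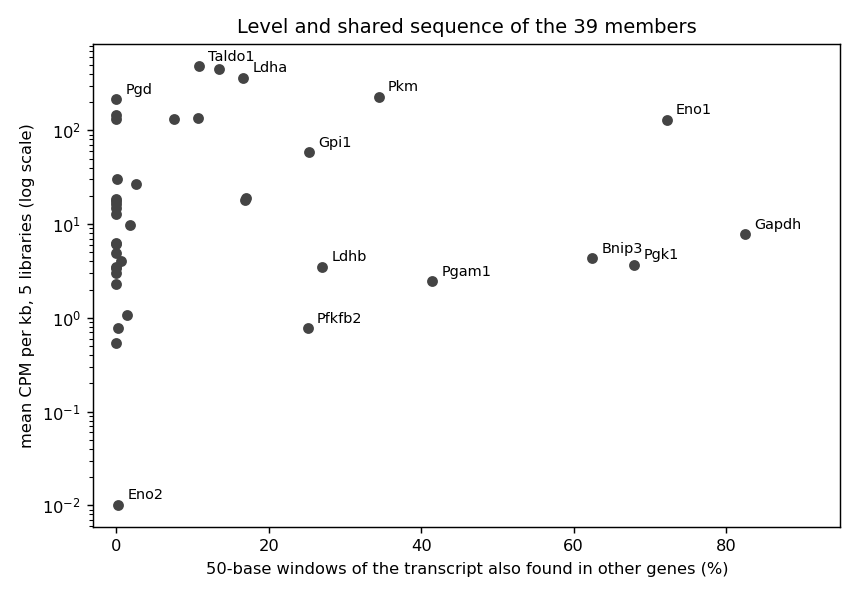
Each point is 1 of the 39 genes, placed by the share of its transcript's 50-base windows found in other genes and by its mean level over the 5 libraries in CPM per kb on a log scale. Gapdh, Pgk1 and Bnip3, with shares over 60%, lie under 10 CPM per kb, whereas Eno1, with a share of 72.2%, lies at 129.9 CPM per kb. Taldo1, the highest in uniquely aligned reads at 486.9 CPM per kb, shares 10.9%.

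The 4 PFKFB enzymes set the level of fructose 2,6-bisphosphate, the activator of phosphofructokinase. None passed, with 1 (Pfkfb4) at an unadjusted p under 0.05, 1 called by DESeq2 and 0 by limma-voom. Pfkfb4, a HIF-1 target and the leading member, had 83.5 and 59.98 CPM in knockout libraries against 43.6, 38.9 and 58.2 CPM in heterozygous ones. The groups lay side by side without overlap (log2 fold change 0.61 ± 0.22, adjusted p = 0.104 by edgeR). Pfkfb3, the isoform with the highest kinase activity, had 26.4 and 15.9 CPM in knockout libraries against 19.3, 17.2 and 18.0 CPM in heterozygous ones, where the knockout libraries lay on opposite sides. Pfkfb2 averaged 3.55 ± 0.0178 CPM in knockout and 3.38 ± 0.174 CPM in heterozygous libraries (SD, n = 2 and 3). Pfkfb1, the liver isoform, had 1.71 and 5.04 CPM in knockout libraries against 6.88, 7.77 and 6.68 CPM in heterozygous ones (log2 fold change -1.07 ± 0.45, adjusted p = 0.155 by edgeR). The lower of these values belongs to knockout replicate 2, which also had the lower hepatocyte marker sum. Without knockout replicate 3 the log2 fold change of Pfkfb1 was -2.04 and passed.

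At the gate between glycolysis and the mitochondria, 0 of 5 genes was called, with 3 at an unadjusted p under 0.05, 1 called by DESeq2 (Pdk1) and 0 by limma-voom. The kinases Pdk1 to Pdk4 switch pyruvate dehydrogenase off. Pdk2, the highest per length, had 51.7 and 42.6 CPM in knockout libraries against 35.8, 36.2 and 39.8 CPM in heterozygous ones (log2 fold change 0.34 ± 0.13, adjusted p = 0.119 by edgeR). Pdk1, the HIF-1 target, had 28.5 and 25.6 CPM in knockout against 39.2, 36.0 and 32.3 CPM in heterozygous libraries (-0.40 ± 0.13, adjusted p = 0.0877 by edgeR). These values of Pdk1 did not overlap, but with length and GC offsets its log2 fold change was 0.07. Pdk3 averaged 29.4 ± 1.52 CPM in knockout and 26.1 ± 2.18 CPM in heterozygous libraries (SD, n = 2 and 3). Pdk4, which fasting induces in many tissues, spread widely, with 1.22 and 3.09 CPM in knockout against 7.96, 4.46 and 2.14 CPM in heterozygous libraries. Pdha1, the catalytic E1 alpha subunit, had 47.6 and 40.03 CPM in knockout libraries against 55.4, 60.6 and 52.5 CPM in heterozygous ones (-0.36 ± 0.12, adjusted p = 0.102 by edgeR, and 0.04 with the offsets).

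The 4 genes of the pentose phosphate pathway were among the most abundant of the 39, and none was called, with 2 (G6pdx and Tkt) at an unadjusted p under 0.05, 1 called by DESeq2 (Tkt) and 0 by limma-voom. Taldo1, transaldolase, was the highest of all 39 genes per length in uniquely aligned reads and had 764 and 687 CPM in knockout libraries against 588, 573 and 704 CPM in heterozygous ones (log2 fold change 0.22 ± 0.12, adjusted p = 0.245 by edgeR). Heterozygous replicate 3 lay between the knockout libraries. G6pdx, glucose 6-phosphate dehydrogenase, the entry enzyme and first source of NADPH, had 409 and 392 CPM in knockout against 312, 307 and 372 CPM in heterozygous libraries (0.28 ± 0.11, adjusted p = 0.139 by edgeR), and without heterozygous replicate 3 it passed at 0.37. Pgd, 6-phosphogluconate dehydrogenase, which makes the next NADPH, had 525 and 473 CPM in knockout libraries against 435, 415 and 527 CPM in heterozygous ones. Tkt, transketolase, had 529 and 441 CPM in knockout against 360, 342 and 433 CPM in heterozygous libraries (0.36 ± 0.14, adjusted p = 0.124 by edgeR).

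Of the 4 hypoxia targets outside glycolysis none was called, with 0 at an unadjusted p under 0.05 and 0 called by DESeq2 or limma-voom. Egln1, the prolyl hydroxylase PHD2 that senses oxygen and is itself induced by HIF-1, was the highest, with 61.8 and 54.4 CPM in knockout libraries against 67.1, 63.6 and 73.6 CPM in heterozygous ones. The groups did not overlap, but the log2 fold change of -0.23 ± 0.11 did not pass (adjusted p = 0.219 by edgeR). Egln3 (PHD3) averaged 1.42 ± 0.110 CPM in knockout and 1.43 ± 0.537 CPM in heterozygous libraries (SD, n = 2 and 3). Vegfa, the endothelial growth factor, had 2.08 and 1.95 CPM in knockout against 2.42, 3.31 and 3.62 CPM in heterozygous libraries (-0.63 ± 0.30, adjusted p = 0.201 by edgeR). Bnip3, a mitophagy receptor, had 7.76 and 8.78 CPM in knockout against 7.74, 7.49 and 5.94 CPM in heterozygous libraries (0.23 ± 0.20, adjusted p = 0.491 by edgeR). With length and GC offsets Bnip3 alone among these 4 passed, at 0.78 (adjusted p = 0.0398 by edgeR). Of its 50-base windows 62.5% also stood in other genes, and the part of multiply aligned reads in this value was not tested.

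Library and base composition each showed a pattern over the 38 tested genes. Heterozygous replicate 3 was the highest heterozygous library for 25 of them, against 36.4% of all genes tested, and knockout replicate 2 was the higher knockout library for 26, against 49.3% of all genes. The 27 genes with a GC content of 50% or more had a median log2 fold change of 0.22, and 21 of them were above 0, whereas the 11 GC-poorer genes had a median of -0.16 with 5 above 0. All tested genes showed the same split, with medians of 0.20 and -0.30. Offsets for length and GC content brought the medians to 0.11 in the 27 GC-richer and 0.07 in the 11 GC-poorer genes, and to 0.059 and 0.082 in the same classes of all genes, and 2 of the 38 genes then passed (Ldhb and Bnip3), where the share of all genes called was 11.7%.

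**Figure D5:**
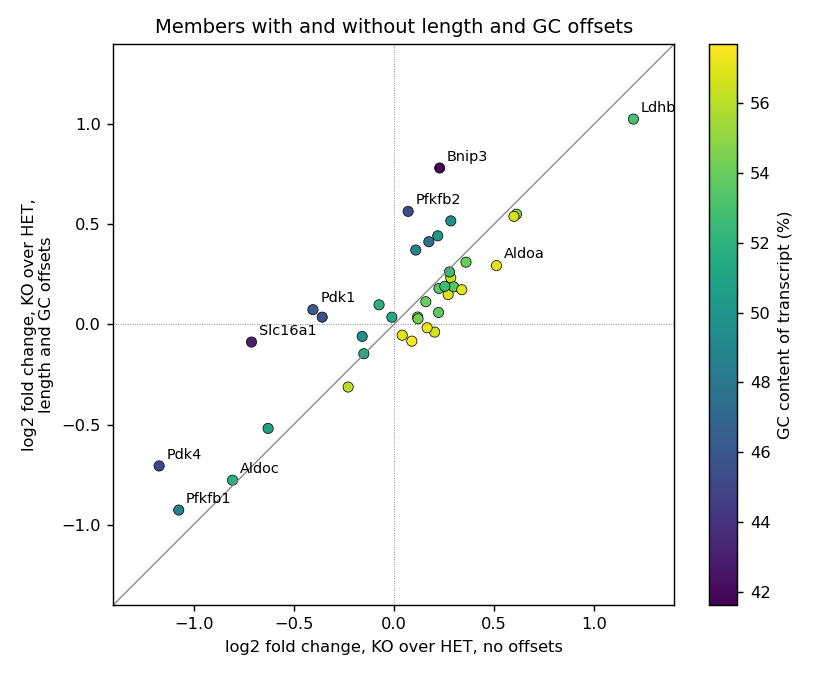
Each point is 1 of the 38 tested genes, with its log2 fold change of knockout over heterozygous without offsets on the horizontal axis and with length and GC offsets on the vertical axis, coloured by GC content. GC-poor genes such as Slc16a1, Pdk1 and Bnip3 lie above the line of equality, and Ldhb and Aldoa lie below it.

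Other genes of the same pathways moved in both directions. Of 108 tested genes in 7 lists, 9 were called higher and 29 lower in the knockout libraries, with a median log2 fold change of -0.19, where 6.41% of all genes were higher and 10.0% lower. With length and GC offsets 10 were higher and 15 lower, and the median was -0.074, beside 0.068 for all genes. Without knockout replicate 2 the counts were 5 higher and 15 lower, without heterozygous replicate 1 they were 5 and 9, and without heterozygous replicate 2 they were 2 and 9. The counts of the single lists are to be read against the same shares of all genes. In the list of gluconeogenesis and liver sugar enzymes, 8 of 13 were lower and 0 higher (median log2 fold change -1.45), beside the lower hepatocyte marker sums given above. Pck1, the enzyme that commits carbon to gluconeogenesis, had 71.6 and 92.3 CPM in knockout libraries against 309, 302 and 306 CPM in heterozygous ones (-1.90 ± 0.13, adjusted p = 0.00291 by edgeR). Fbp1, a phosphatase of the same pathway, changed by -1.67 ± 0.16 on the log2 scale. Both passed in each fit that left out 1 library. The highest genes of this list that did not pass were Khk, fructokinase, at 143 and 147 CPM in knockout against 115, 112 and 141 CPM in heterozygous libraries (0.24 ± 0.12, and -0.018 with offsets), and the phosphatase G6pc3, at 31.7 and 32.3 CPM in knockout against 21.5, 25.3 and 29.9 CPM in heterozygous libraries (0.32 ± 0.16).

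Among 24 further glycolytic enzymes and sugar transporters, 3 were higher and 8 lower (median log2 fold change -0.19). Eno3, the muscle-type enolase, had 22.9 and 24.4 CPM in knockout libraries against 9.87, 11.6 and 11.01 CPM in heterozygous ones. It rose by 1.13 ± 0.14 on the log2 scale (adjusted p = 0.00974 by edgeR). Gpd1, which links glycolysis to glycerolipids, and Tkfc, a fructose pathway kinase, changed by -1.82 ± 0.20 and -1.51 ± 0.19. These 3 genes passed in each fit that left out 1 library. The highest that did not pass were Adpgk, which phosphorylates glucose with ADP, at -0.19 ± 0.09, and Khk. Of 10 genes of pyruvate entry and the dehydrogenase complex, 3 were lower and 0 higher (median log2 fold change -0.27). Pcx, pyruvate carboxylase, had 34.1 and 37.1 CPM in knockout against 137, 128 and 146 CPM in heterozygous libraries (-1.94 ± 0.11, adjusted p = 0.00196 by edgeR). It too passed in each such fit, and it is abundant in hepatocytes. Dld, the E3 subunit, and Pdpr, a regulator of the complex's phosphatase, changed by -1.17 ± 0.23 and -1.03 ± 0.23 but lost the call with offsets (-0.54 and -0.66). Dld also lost it without knockout replicate 2 (-0.90) or heterozygous replicate 1 (-1.14) or 2 (-1.07). Pdpr lost it without knockout replicate 2 (-0.83) or heterozygous replicate 1 (-1.10), 2 (-0.86) or 3 (-1.10). The pyruvate carrier subunit Mpc2 (0.12 ± 0.15, and -0.16 with offsets) and the E2 subunit Dlat (-0.31 ± 0.11, and 0.043 with offsets) were the highest that did not pass.

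Of 10 further genes of the pentose phosphate pathway and ribose use, 1 was higher and 2 lower (median log2 fold change 0.03). With 10 genes, these counts are too small to compare with the 6.41% higher and 10.0% lower of all genes. Pgls, the lactonase between G6pdx and Pgd, had 125 and 133 CPM in knockout libraries against 84.0, 82.2 and 92.5 CPM in heterozygous ones and rose by 0.58 ± 0.10 on the log2 scale (adjusted p = 0.0169 by edgeR). Rpe, ribulose phosphate epimerase, and Prps2, which makes phosphoribosyl pyrophosphate, changed by -1.06 ± 0.16 and -0.86 ± 0.16. All 3 lost the call with offsets, at 0.04 for Pgls, -0.35 for Rpe and -0.24 for Prps2. Pgls lost it without heterozygous replicate 1 (0.56) or 2 (0.55). Without knockout replicate 2 or heterozygous replicate 1 or 2, Rpe (-0.99, -1.06 and -1.09) and Prps2 (-0.75, -0.83 and -0.94) lost it as well. H6pd, the endoplasmic reticulum counterpart of G6pdx (0.11 ± 0.12), and Prpsap1, which associates with the synthetases (0.039 ± 0.097, and -0.11 with offsets), were the highest that did not pass.

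The transcripts of Hif1a and Epas1 were lower, while hypoxia-induced genes moved in both directions. Of 9 factors and oxygen sensors, 2 were lower and 0 higher (median log2 fold change -0.53). With offsets 1 was lower and 1 higher, and the median was -0.077. Hif1a, the oxygen-regulated subunit of HIF-1, had 7.09 and 3.99 CPM in knockout libraries against 23.7, 19.4 and 12.99 CPM in heterozygous ones (-1.75 ± 0.36, adjusted p = 0.0266 by edgeR). The Hif1a call was lost with offsets (-0.99, adjusted p = 0.117 by edgeR) and without knockout replicate 3 (-1.39) or heterozygous replicate 1 (-1.55) or 2 (-1.72). Its protein is controlled mainly by degradation, which counts of RNA do not show. Epas1, which encodes HIF-2 alpha and is also strong in endothelial cells, had 12.3 and 13.2 CPM in knockout against 35.4, 27.8 and 24.6 CPM in heterozygous libraries (-1.20 ± 0.19, adjusted p = 0.0155 by edgeR). Epas1 kept the call with offsets (-1.05) and lost it without knockout replicate 2 (-1.16) or heterozygous replicate 2 (-1.23). Summed endothelial markers were 1300 and 1270 CPM in knockout libraries against 1461 to 1767 CPM in heterozygous ones, with 4 of 11 lower and 0 higher, and their part in the Epas1 value was not tested. The highest genes of the list that did not pass were the oxygen sensor Egln2 (0.37 ± 0.12) and Cited2, which competes with the HIF factors for a coactivator (-0.53 ± 0.19). DESeq2 called both, Egln2 at 0.39 and Cited2 at -0.51.

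Of 28 further hypoxia-induced genes, 4 were higher and 6 lower (median log2 fold change -0.12), and with offsets 4 and 1. Hilpda, which inhibits fat breakdown at lipid droplets, had 136 and 92.4 CPM in knockout libraries against 21.7, 26.7 and 36.3 CPM in heterozygous ones (2.02 ± 0.25, adjusted p = 0.00977 by edgeR). The transcriptional repressor Bhlhe40 rose to 71.3 and 66.1 CPM in knockout libraries, against 32.5, 29.9 and 35.7 CPM in heterozygous ones (1.07 ± 0.12, adjusted p = 0.00766 by edgeR). Bhlhe40 is also induced by stimuli other than hypoxia. Jmjd6, a hydroxylase, rose by 0.74 ± 0.10 on the log2 scale, and Gbe1, the glycogen branching enzyme, changed by -1.23 ± 0.16. Hilpda (1.99) and Jmjd6 (0.75) lost the call only without heterozygous replicate 2 among the fits that left out 1 library, and Gbe1 lost it with offsets (-0.65). P4hb, a subunit of prolyl hydroxylase for collagen (-0.12 ± 0.08), and the lipid droplet protein Plin2 (-0.023 ± 0.11) were the highest that did not pass. Of 17 regulators around glucose sensing and Myc, 1 was higher and 2 lower (median log2 fold change -0.09), near the shares of all genes. Akt2 rose by 0.43 ± 0.11, a call lost in each fit that left out 1 library (0.35 to 0.52). Mlxipl, the glucose-sensing factor ChREBP of liver, changed by -1.33 ± 0.25 and Prkaa1, a catalytic subunit of AMPK, by -1.14 ± 0.22. Both lost the call without knockout replicate 2 or heterozygous replicate 1 or 2 (Mlxipl at -1.20, -1.44 and -1.20, Prkaa1 at -0.97, -1.13 and -0.997), and Prkaa1 also with offsets (-0.35). Akt1, at 874 and 714 CPM in knockout libraries against 564, 529 and 634 CPM in heterozygous ones (0.46 ± 0.12, adjusted p = 0.0527 by edgeR), just missed the threshold and passed with DESeq2, limma-voom and 3 other settings of scaling or filter. Without knockout replicate 3 (0.61) or heterozygous replicate 3 (0.54) it passed as well. Txnip, which limits glucose uptake, stood at -0.11 ± 0.08, and at 0.12 with offsets.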

How the data were processed

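RNA of 5 Kupffer cell samples (2 Id3 knockout, 3 heterozygous) was turned into cDNA by SMART-seq V4, and Kapa chemistry with 8 PCR cycles gave the libraries, per the labels' protocols. The authors deposited raw counts of reads for each gene in each sample. The submitters' processing notes name HTSeq 0.5.4, DESeq 1.18.0, R 3.1.2 and the build mm9; aligner, annotation release and strand setting: not given in the sources used here. Overlapping and antisense genes (Hk1 and Hk1os, for example) can therefore not be told apart. Entries that name no gene (40.0% and 42.8% of everything counted in knockout, 47.0%, 47.5% and 48.6% in heterozygous libraries) were left out.

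Counts were fitted with edgeR 4.0.16 in R 4.3.3 (filterByExpr, TMM, quasi-likelihood test, all 5 samples, no covariate), knockout over heterozygous, and Benjamini-Hochberg adjusted over 16436 genes. Levels of single genes are CPM after TMM scaling, and sums over lists use plain library sizes. Standard errors (SE) were obtained as the absolute log2 fold change over the square root of F. With 3 samples against 2, an exact test cannot reach a p under 0.1, and sums were left untested. A count of 0 allows up to 3 counts, 0.0371 to 0.0401 CPM per library, for counting error only. Length (longest coding transcript), GC content and shared 50-base windows come from GENCODE M21 transcripts, which matched 46488 of 46983 genes. Offsets were smooth terms of length and GC content fitted per library (mgcv 1.9.3). The fits were also run on simulated counts that held no length or GC trend between libraries. Those runs cannot show how well the offsets work. Genes outside the 39 were named by a fixed rule, per list up to 4 that passed by smallest p and up to 2 that did not by highest level; some of these are not reported here. The 39 genes, the lists and the tests were chosen with earlier results of these data known. Alternatives were DESeq2 1.42.0, limma-voom (limma 3.58.1), robust fitting, other scalings and filters, a minimum fold, length and GC offsets, a replicate block and leaving out each sample.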

Additional observations from a re-analysis of the deposited data

How the results depend on the processing

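Direction and call were kept in 546 of 608 refits of the 38 genes (16 alternatives each). Of the rest, 18 lost a call, 10 gained 1 and 34 changed sign, all of the last without passing before or after. Only Aldoa, Ldhb and Slc16a1 had a call to lose, and all 18 lost calls were theirs. For the other 35 genes, staying uncalled with the same sign counts as kept. Of 560 refits of the 35 pathway genes chosen by the naming rule, 443 kept both, 86 lost a call, 11 gained 1 and 20 changed sign. Of the genes called higher and lower, DESeq2 gave 5 and 3 among the 38 genes, 2061 and 2520 among all genes, and 16 higher among the genes of the 7 pathway lists. A minimum absolute log2 fold change of 1 gave 1 and 0, 219 and 1048, and 3 higher in the lists. Requiring 1 CPM in 2 samples gave 14 higher in the lists. Length and GC offsets gave 0 lower among the 38 genes, 15 in the lists and 819 among all genes. With the replicate block, 0 and 0 of the 38, 0 and 0 of the lists, and 0 higher and 1 lower of all genes passed; offsets with the replicate block gave 0 and 0, 0 and 0, and 1 and 2. This block leaves 1 residual degree of freedom, and same-numbered samples did not deviate together (correlations of -0.0256 and -0.0618), so the numbers are no evidence of pairing.

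Leaving out 1 library at a time, the counts ranged from 0 to 4 higher and 0 to 2 lower for the 38 genes, 2 to 11 and 9 to 27 for the lists, and 87 to 1032 and 248 to 1508 for all genes. The lowest counts over all genes came without heterozygous replicate 2 and the lowest of the 38 genes without heterozygous replicate 1 or 2. The median of the 38 genes ranged from 0.047 without knockout replicate 2 to 0.23 without knockout replicate 3. With 1 knockout library left, that library is assumed to vary like the others.

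Log2 fold changes that changed sign with the offsets, and with offsets and the block, were those of Hk2 (0.10 and 0.048), Pfkl (-0.054 and -0.058), Gapdh (-0.038 and -0.083), Eno1 (-0.017 and -0.048), Pkm (-0.084 and -0.11), Pdk1 (0.074 and 0.13) and Pdha1 (0.036 and 0.010), and with both together only Pfkm (-0.058) and Pgd (-0.0043). Egln3, at -0.01, came to 0.013 with DESeq2, 0.074 with limma-voom, 0.013 with RLE, 0.054 with upper-quartile scaling, 0.017 with the 1 CPM filter, 0.26 with the replicate block, 0.036 with offsets and 0.30 with both. Signs also changed when 1 library was left out for Slc2a3 (-0.085 to 0.59), Hk2 (-0.13 to 0.042), Pfkl (-0.00072 to 0.092), Pfkm (-0.0074 to 0.24), Pfkp (-0.084 to 0.29), Pkm (-0.058 to 0.23), Pfkfb3 (-0.20 to 0.55) and Egln3 (-0.29 to 0.16). Among the pathway genes, signs changed with offsets, and with offsets and the block, for Khk (-0.018 and -0.049), Prpsap1 (-0.11 and -0.10), Mpc2 (-0.16 and -0.21), Dlat (0.043 and 0.031) and Txnip (0.12 and 0.15), and with both together for G6pc3 (-0.0085). Plin2 came to 0.0019 with DESeq2 and with RLE, 0.044 with upper-quartile scaling and 0.0053 with the 1 CPM filter. Leaving out 1 library gave H6pd -0.050 to 0.27, Prpsap1 -0.048 to 0.13, Mpc2 -0.080 to 0.30 and Plin2 -0.11 to 0.065. The causes were not tested. At 2 and 3 libraries a group, a value that misses the threshold does not show that levels were alike, and genes of low counts, such as Egln3 with 64 in heterozygous replicate 2, are measured least precisely.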
